A study of Homo sapiens with 6 samples.

Results

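The 8 genes SELENOF, SELENOI, SELENOK, SELENOM, SELENON, SELENOO, SELENOS and SELENOT encode selenoproteins that are not the peroxidases, reductases or deiodinases of the family. They were taken by symbol from a table of 21631 gene symbols, and all 8 were found. The measurements are RNA-seq read counts in 6 libraries of A-375, a melanoma cell line of human origin. The libraries are titled sgCTRL (a control guide, 3 libraries) and sgSEPHS2 (a guide against SEPHS2, 3 libraries), and the design text calls the second group knockout cells. The labels give no other treatment, no time point and no statement that a group is a single clone or that the replicates are separate cultures, so each p-value is set against the spread among these libraries, which may be technical. An effect of the guide and a chance difference between the founding cells cannot be told apart.

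Selenoproteins carry selenocysteine, an amino acid placed at a UGA codon that elsewhere ends translation. A hairpin in the 3′ untranslated region of the mRNA, a dedicated transfer RNA and selenophosphate, the product of SEPHS2, are needed for this reading. When selenium is short, some selenoprotein mRNAs are lost because the UGA is treated as a premature stop, and others are spared. SELENOF and SELENOM are thioredoxin-like proteins of the endoplasmic reticulum (ER) lumen, where SELENOF binds the glucosyltransferase that checks glycoprotein folding. SELENOT and SELENON sit in the ER membrane with redox sites, SELENON as a regulator of calcium uptake that is mutated in congenital muscle disease. SELENOK and SELENOS are small single-pass ER membrane proteins of ER-associated degradation, the route that returns misfolded proteins to the cytosol. SELENOI is the ethanolamine phosphotransferase that makes phosphatidylethanolamine and ether lipid precursors. SELENOO is a mitochondrial pseudokinase that attaches AMP to proteins, so the name "endoplasmic reticulum and membrane selenoproteins" does not cover it.

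The selenocysteine codon of 7 of the mRNAs, all but SELENON, is shown because this is the base triplet that depends on SEPHS2, and its place in the message differs among them. Each sequence is the coding strand of the longest GENCODE 29 protein-coding transcript with an annotated selenocysteine, 30 bases on either side or to the end of the stop codon. Capitals mark the TGA and, where it lies within 4 codons upstream, the nearest in-frame cysteine codon (TGT or TGC).
SELENOF: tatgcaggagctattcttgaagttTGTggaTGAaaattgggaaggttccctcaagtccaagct
SELENOM: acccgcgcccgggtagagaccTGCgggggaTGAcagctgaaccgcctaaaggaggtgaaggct
SELENOT: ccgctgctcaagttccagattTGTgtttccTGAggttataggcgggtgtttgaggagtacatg
SELENOO: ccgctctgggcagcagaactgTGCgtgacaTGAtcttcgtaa
SELENOI: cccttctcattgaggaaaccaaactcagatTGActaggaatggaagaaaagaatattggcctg
SELENOK: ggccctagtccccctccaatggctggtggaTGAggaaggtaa
SELENOS: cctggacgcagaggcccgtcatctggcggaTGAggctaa

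A cysteine codon stands close upstream in 4 of the 7. Between it and the TGA stands 1 codon in SELENOF, and 2 codons stand between them in SELENOM, SELENOT and SELENOO. In SELENOI, SELENOK and SELENOS no cysteine codon lies within 4 codons upstream. The TGA is codon 96 of 165 in SELENOF, 48 of 145 in SELENOM, 49 of 195 in SELENOT and 387 of 397 in SELENOI. It is almost the last codon in SELENOK (92 of 94), SELENOS (188 of 189) and SELENOO (667 of 669).

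The distance from the TGA to the last exon junction is a feature that bears on whether a stop read there would mark the message for decay. The TGA lay in the last exon in SELENOI and SELENOO. It ended 5 bases before the last junction in SELENOK, 13 in SELENOS, 78 in SELENOF, 135 in SELENOM and 470 in SELENOT. On GRCh38 the codons lie at chr1:86880690-86880692 (SELENOF, minus strand), chr2:26389068-26389070 (SELENOI, plus), chr3:53885831-53885833 (SELENOK, minus) and chr22:31105951-31105953 (SELENOM, minus). The others lie at chr22:50217358-50217360 (SELENOO, plus), chr15:101272777-101272779 (SELENOS, minus) and chr3:150622392-150622394 (SELENOT, plus). All are exonic and coding.

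**Figure D1:**
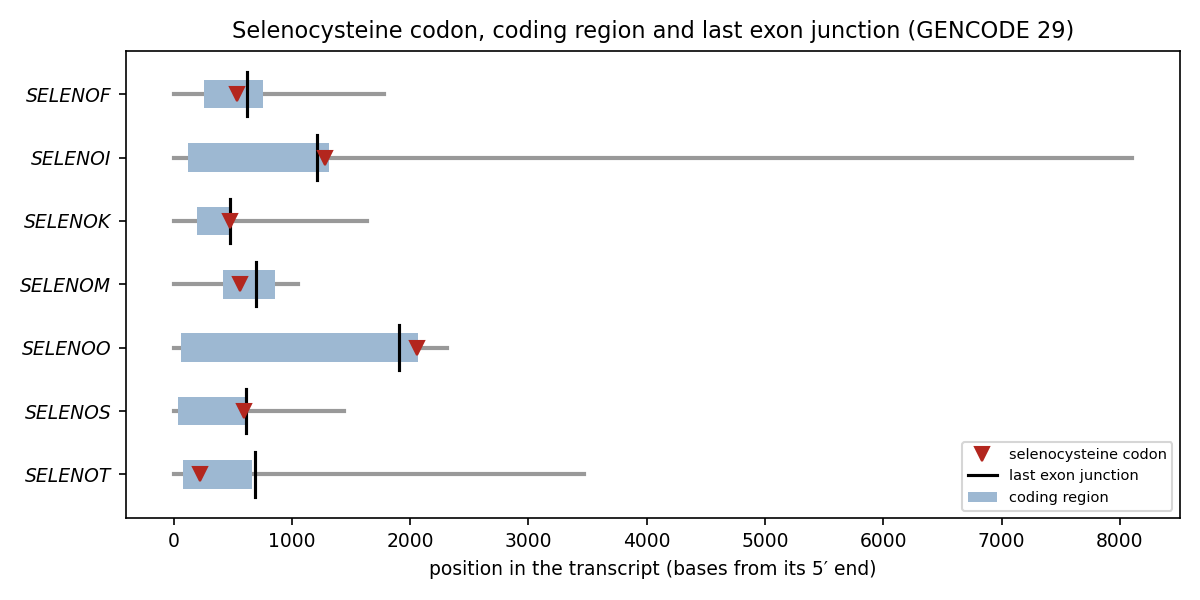
Transcript maps of 7 of the mRNAs in bases from the 5′ end, with the coding region as a blue bar, the rest of the transcript as a grey line, the last exon junction as a black tick and each annotated selenocysteine codon as a red triangle. The codon lies beyond the last junction in SELENOI and SELENOO and before it in the other 5.

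The libraries held between 34606145 and 43405579 counted reads. SEPHS2, read as a check on the labels, was not lower in the libraries labelled sgSEPHS2. The 3 controls gave 6671, 6277 and 6269 SEPHS2 reads and the other 3 libraries 5802, 7643 and 6978, which is 156 ± 3.32 against 173 ± 3.85 CPM (counts scaled to a common library size; mean ± SD, n = 3). Its log2 fold change was 0.15, SE 0.04 (edgeR adjusted p = 0.00401). A gene-level count does not show whether a guide altered the reading frame, so each direction below rests on the labels. Of 11 melanocyte lineage markers, 7 reached 1 CPM, led by SOX10 at 622 and 566 CPM and ERBB3 at 579.7 and 605 CPM in control and sgSEPHS2 libraries. The pigment genes PMEL, TYR, DCT and TYRP1 were below 1 CPM. Summed epithelial markers were 204 to 207 CPM in control libraries and 243 to 252 in the others, and summed fibroblast markers 74.5 to 75.9 and 48.4 to 55.4 CPM. Summed leukocyte markers were 3.45 to 4.4 and 6.47 to 7.2 CPM, and endothelial markers 6.51 to 8.09 and 5.63 to 6.91 CPM. Summed melanocyte lineage markers were 1262 to 1305 and 1214 to 1267 CPM, with 3 genes called lower and none higher. Few genes made up most of each sum. KRT8 (75.3 and 104 CPM) and KRT18 (129 and 142) led the epithelial sum and LYZ (3.29 and 6.66) the leukocyte sum. PDGFRB (52.7 and 28.8) led the fibroblast sum, while LUM (4.15 and 6.97) and DCN (0.342 and 0.615) went the other way. At least 1 CPM was reached by 4 of 7 fibroblast, 2 of 6 epithelial, 1 of 6 leukocyte and 1 of 4 endothelial markers, with EPCAM, CDH1, DCN, PTPRC, VWF and CDH5 below it. The part of these marker shifts in the results below was not tested, and in bulk RNA fewer cells of a type and less RNA per cell cannot be told apart.

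Across the 8 genes, 2 mRNAs rose (SELENOS and SELENOK), 1 fell (SELENON) and 5 did not pass the test. Of all 16910 genes tested, 45.4% passed, 22.0% higher and 23.4% lower, so 3 of 8 is no larger a share than the background. The median log2 fold change of the 8 was 0.02, against 0.01 over all tested genes, and their median absolute log2 fold change was 0.06, against 0.20. The tested genes include some with few reads and wider errors, such as SELENOP (SE 0.37, against 0.04 to 0.09 in the 8). No comparison was made with genes of like level. The summed level of the 8 was 631 to 640.3 CPM in control libraries and 622 to 653 CPM in libraries labelled sgSEPHS2, and these ranges overlap. The CPM of the groups did not overlap for SELENON, SELENOS and SELENOT, 3 of 8, where 52.1% of tested genes had groups that did not overlap. All 8 passed the filter on low counts, so none was left untested.

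SELENON, the calcium-linked oxidoreductase of the ER membrane, was the gene of the 8 that moved farthest. Control libraries held 4542, 4302 and 4072 reads and the libraries labelled sgSEPHS2 held 2934, 3648 and 3419, or 108, 104 and 102 CPM against 85.9, 84.7 and 84.4 CPM. All 3 sgSEPHS2 libraries lay below all 3 controls, and they were within about 2 CPM of one another. The mean went from 104.7 ± 2.91 to 85 ± 0.829 CPM (SD, n = 3), a fall to 0.812 of the control level (95% interval 0.764 to 0.863), log2 fold change -0.30, SE 0.04 (edgeR adjusted p = 5.85e-06). A log2 fold change at least as low was seen in 19.8% of tested genes. With a smooth trend in transcript length and GC content removed SELENON had -0.20 (edgeR adjusted p = 1.28e-04), and with that trend removed uncentred, a setting added after the data were seen, it had -0.13 (edgeR adjusted p = 0.00733). SELENON lies on chromosome 1 (protein-coding), where the median log2 fold change over 1682 tested genes was 0.02. Exons of an antisense gene and of a protein-coding gene model on the same strand overlap 6.46% and 8.54% of its exon bases. The strand setting of the counting is not given in the sources used here, and neither gene is a row of the table.

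SELENOS, also called VIMP, anchors the ATPase VCP at the ER membrane. It had 1305, 1194 and 1134 reads in the controls and 1197, 1456 and 1310 in the libraries labelled sgSEPHS2, or 31.0, 28.9 and 28.4 CPM against 35.1, 33.8 and 32.3 CPM. The lowest sgSEPHS2 library stood above the highest control. Its mean rose from 29.4 ± 1.35 to 33.7 ± 1.37 CPM, 1.15-fold (95% interval 1.06 to 1.24), log2 fold change 0.20, SE 0.06 (edgeR adjusted p = 0.00704). The call was lost when the length and GC trend was removed, with log2 fold change 0.13 and edgeR adjusted p = 0.0628. Over 14 other settings at the same threshold (other scalings, filters, tools, the replicate block, each library left out and the trend removed) the adjusted p of SELENOS ranged from 0.00519 to 0.0628.

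SELENOK, a partner of the derlins and of the palmitoyltransferase ZDHHC6, had 2127, 2204 and 2290 reads in the controls and 2196, 2736 and 2285 in the others. In CPM these were 50.5, 53.4 and 57.4 against 64.3, 63.5 and 56.4. The groups overlapped, since sgSEPHS2 replicate 3 lay below control replicate 3. The mean rose from 53.7 ± 3.46 to 61.4 ± 4.37 CPM, 1.14-fold (95% interval 1.05 to 1.24), log2 fold change 0.19, SE 0.06 (edgeR adjusted p = 0.00874). Without sgCTRL replicate 1 the value was 0.15 and the call was lost (edgeR adjusted p = 0.0655), and with the length and GC trend removed it was 0.03 (edgeR adjusted p = 0.663). The range of the adjusted p of SELENOK over the 14 settings was 0.00128 to 0.663. RefSeq lists 3 SELENOK pseudogenes, none of them a row of the table, and reads shared with them could not be separated. The same limit holds for SELENOT (SELENOTP1 and SELENOTP2) and SELENOO (SELENOOLP).

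SELENOT, the thioredoxin-like protein of the ER membrane, had 119, 122 and 119 CPM in the controls and 127, 129.5 and 125 CPM in the libraries labelled sgSEPHS2. These groups did not overlap, yet the gene did not pass the test. Its means were 120.0 ± 1.69 and 127 ± 2.34 CPM, a fold of 1.06 (95% interval 0.999 to 1.12), log2 fold change 0.08, SE 0.04 (edgeR adjusted p = 0.103). With the length and GC trend removed SELENOT had -0.02 (edgeR adjusted p = 0.712). The coefficient of variation was 1.41% among the controls and 1.84% in the other group, where counting error alone gives 1.42% in both. SERP1, on the opposite strand, shares 1.48% of the exon bases of SELENOT and had a log2 fold change of 0.05 (edgeR adjusted p = 0.307).

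SELENOF gave almost the same level in both groups. Its CPM values were 160.5, 171 and 168 in the controls and 166, 169 and 164 in the others, and the sgSEPHS2 values lay inside the control range. The means were 166 ± 5.3 and 166.5 ± 2.31 CPM, a fold of 1.00 with a 95% interval of 0.943 to 1.06 (log2 fold change 0.00, edgeR adjusted p = 0.994). The estimate for SELENOF turned negative with the length and GC trend removed (log2 fold change -0.18, edgeR adjusted p = 3.42e-04), its only call over the 14 settings, and was -0.03 to 0.02 with 1 library left out. SELENOM, its relative in the ER lumen, was the least abundant of the 8 by CPM, with 10.0, 10.8 and 9.945 CPM against 10.1, 11.2 and 9.35 CPM. The SELENOM groups overlapped, and the fold was 0.998 with a 95% interval of 0.875 to 1.14 (edgeR adjusted p = 0.983). With 344 to 483 reads per library, counting error alone gives a coefficient of variation of 4.87% in the SELENOM controls and 4.99% in the other group, where 4.51% and 9.19% were seen.

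SELENOI, the phosphatidylethanolamine enzyme, had 139, 137 and 134 CPM in the controls and 151, 132 and 138 in the libraries labelled sgSEPHS2, where replicate 1 was the highest and replicate 2 the lowest of all 6. The fold was 1.03 (95% interval 0.958 to 1.10, log2 fold change 0.04, SE 0.05, edgeR adjusted p = 0.56). With the length and GC trend removed SELENOI had 0.12 (edgeR adjusted p = 0.0123), and without sgSEPHS2 replicate 1 it had -0.02 (edgeR adjusted p = 0.77). SELENOO, the mitochondrial member, had 12.9, 13.2 and 12.45 CPM against 13.2, 12.8 and 12.2 CPM, with overlapping groups. Its fold was 0.99 (95% interval 0.886 to 1.11, edgeR adjusted p = 0.901). Genes on the opposite strand share 5.95% of the exon bases of SELENOI (ADGRF3, 106 reads over the 6 libraries) and 9.69% of those of SELENOO. Of the 5 genes that did not pass, SELENOM had the widest interval, and a missed threshold does not show that levels were equal.

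**Figure D2:**
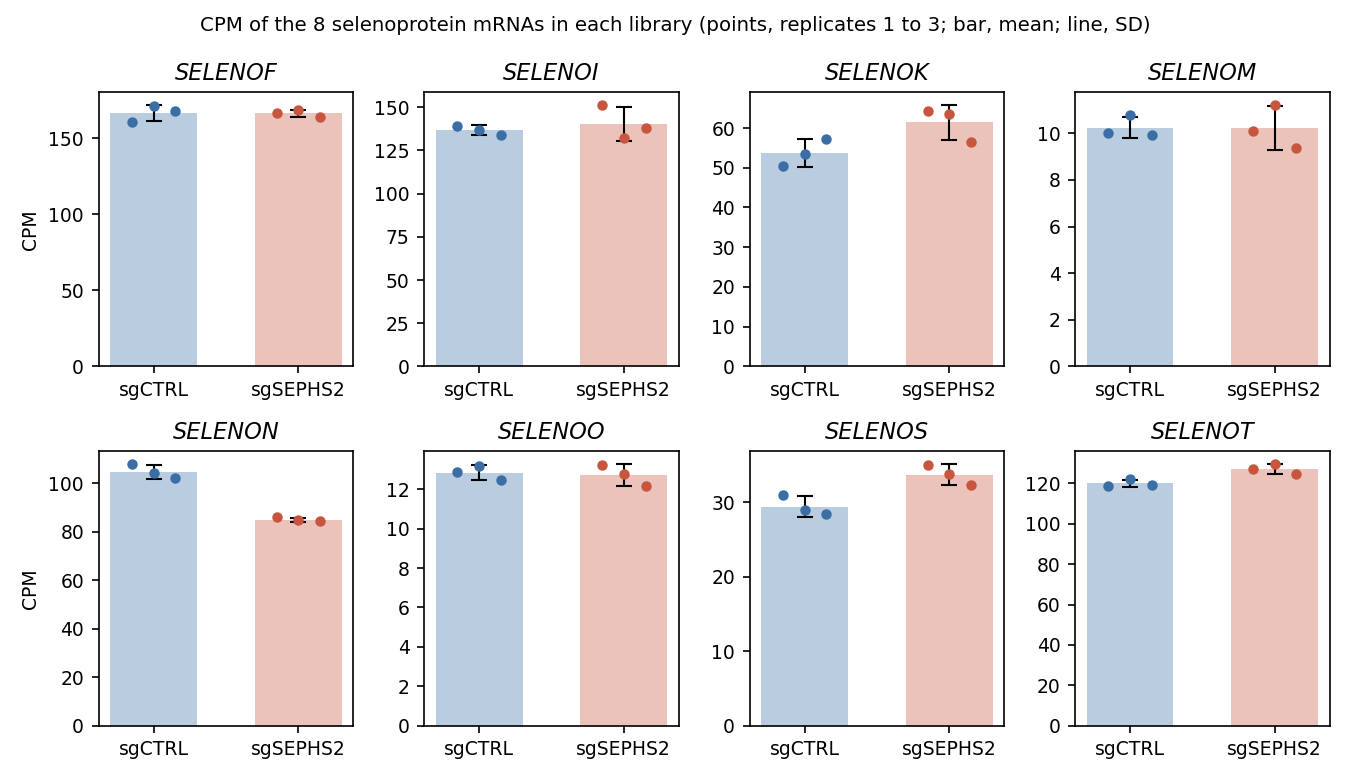
CPM of each mRNA on a linear axis from 0, with points for the 3 libraries of each group, bars for the means and lines for the SD (n = 3). SELENON falls from 104.7 to 85 CPM with tight points, SELENOS, SELENOK and SELENOT stand slightly higher in the libraries labelled sgSEPHS2, and the bars of the other 4 are nearly level.

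**Figure D3:**
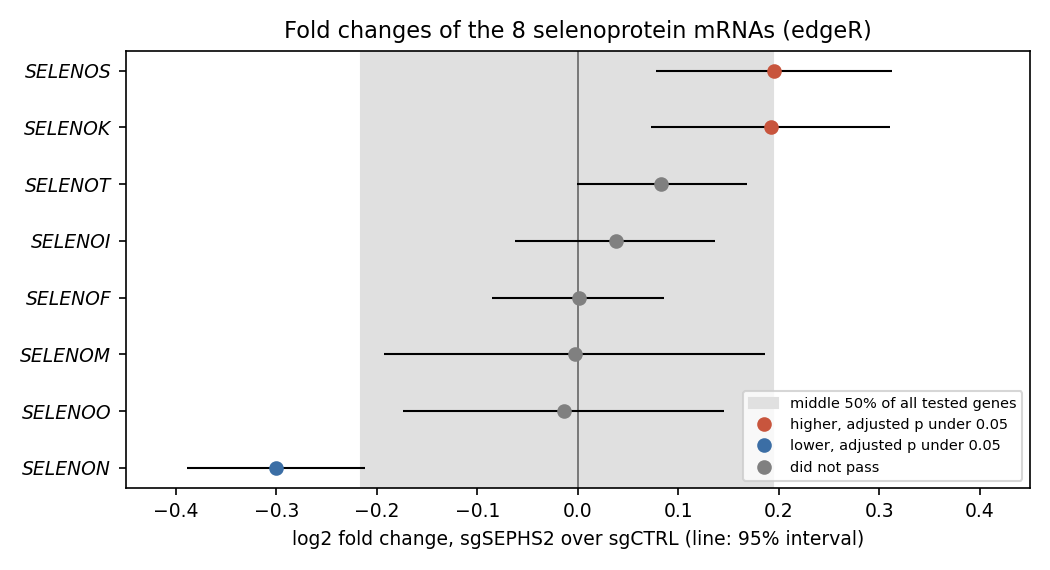
Log2 fold changes (points) with 95% intervals (lines), coloured by call, over a grey band that holds the middle 50% of all tested genes, from -0.22 to 0.19. SELENON at -0.30 lies outside the band, SELENOS and SELENOK stand at its upper edge, and the other 5 lie inside it.

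Raw reads of 2 genes within a library can be compared with no scaling factor. The pairs with SELENON were chosen after its values were seen and are given as a description. SELENOS had 0.287, 0.278 and 0.279 reads for each SELENON read in the controls and 0.408, 0.399 and 0.383 in the libraries labelled sgSEPHS2, so that the mean ratio was 1.41 times higher. For SELENOF the ratios were 1.49, 1.64 and 1.65 against 1.94, 1.99 and 1.95, a factor of 1.23. For all 7 partners the ratio to SELENON was higher in every sgSEPHS2 library than in any control, by factors of 1.22 (SELENOO) to 1.41 (SELENOS). All 7 ratios share SELENON, the gene that fell, so they are not separate results. SELENON made up 16.2% to 17.1% of the reads of the 8 genes in controls and 13.2% to 13.6% in the others.

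Levels were compared between genes per kilobase, as CPM divided by the length of the longest GENCODE 29 transcript with an annotated selenocysteine. SELENOF stood far above the rest, at 93.4 ± 2.98 CPM per kilobase in control libraries. SELENOT (34.6 ± 0.488) and SELENOK (32.9 ± 2.12) followed, and their control ranges overlapped. Below them came SELENON (24.1 ± 0.672), SELENOS (20.5 ± 0.941), SELENOI (16.9 ± 0.349), SELENOM (9.72 ± 0.438) and SELENOO (5.545 ± 0.162), and no 2 neighbours among these overlapped. In the libraries labelled sgSEPHS2, SELENOS (23.4 ± 0.952) stood above SELENON (19.6 ± 0.191) and SELENOK (37.6 ± 2.68) above SELENOT (36.7 ± 0.674), the last pair again with overlapping ranges. Other transcripts of a gene would give other lengths, and the 8101 bases of SELENOI are mostly 3′ untranslated region (6788 bases).

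**Figure D4:**
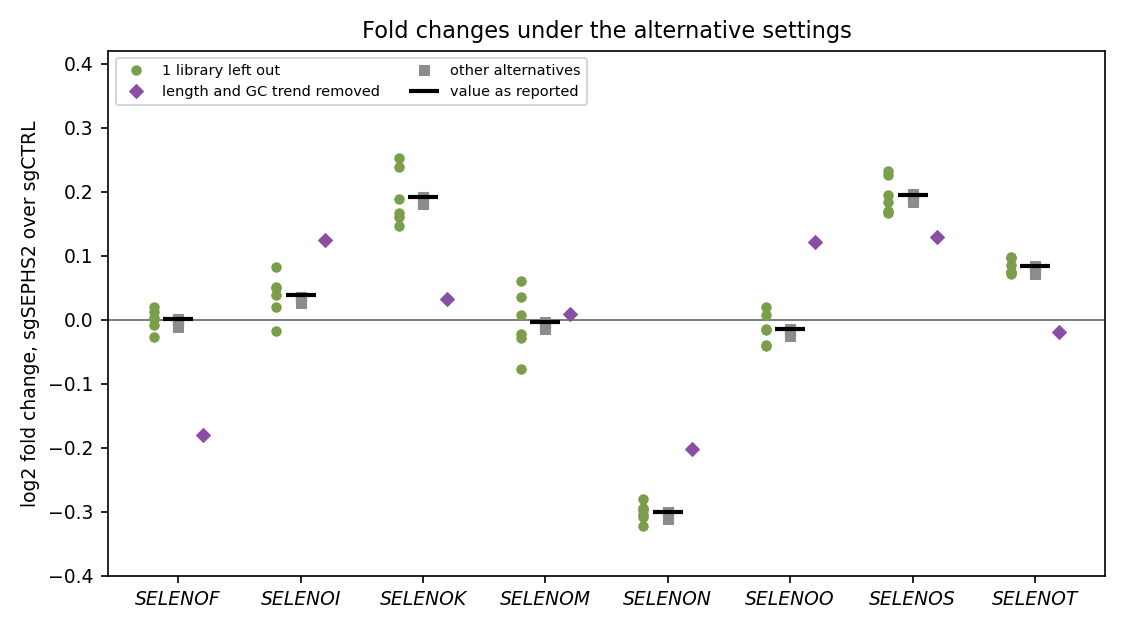
Log2 fold change of each mRNA as reported (black bar) and under the other settings, with green points for 1 library left out, grey squares for other scalings, filters, tests and the replicate block, and purple diamonds for removal of the length and GC trend. SELENON stays between -0.32 and -0.20 under the settings drawn, which leave out the uncentred trend, while the purple diamonds move SELENOF to -0.18 and SELENOK to 0.03.

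Promoters were searched because SELENOK and SELENOS are known as genes induced by ER stress. RefSeq promoter sequences (GRCh38.p14, 250 bases upstream of the start) matched 6 of the 8 genes. SELENOM and SELENOO were not among them. The ER stress element, CCAAT followed after 9 bases of any kind by CCACG, was sought on both strands. An exact match was found in 0.074% of 35116 promoters, HSPA5 among them, and in none of the 6 genes. With 1 mismatch allowed in its 10 fixed letters it was found in 1.36% of promoters and, of the 6, in SELENOK alone. The stretch is shown with the 9 matching letters in capitals (chr3:53891874-53891972, minus strand; the element ends 54 bases before the start).
SELENOK: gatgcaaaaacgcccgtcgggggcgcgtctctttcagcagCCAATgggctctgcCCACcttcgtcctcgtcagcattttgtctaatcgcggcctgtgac
The CCAAT letters alone, which form part of that element, occurred in 32% of promoters and in SELENOF, SELENOI, SELENOK and SELENOS. The letters TGACNNNGC of the antioxidant response element occurred in 10.9% of promoters and in SELENOK and SELENON. The element of type II (ATTGG, 1 base of any kind and CCACG) and the letters TGACGTG and TGATGNAA were found in 0.0513%, 1.68% and 3.14% of promoters and in none of the 6. Such matches are letters in a window and say nothing of binding.

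Genes that work with these proteins were read from lists chosen by pathway. ER-associated degradation genes, the route of SELENOS and SELENOK, moved in both directions, with 5 of 27 tested higher, 5 lower and 17 that did not pass (median log2 fold change -0.05), so 37% passed beside 45.4% of all genes. VCP, the ATPase that SELENOS recruits, rose from 351 ± 2.64 to 434 ± 17.4 CPM, which is 0.31 on the log2 scale (edgeR adjusted p = 2.87e-06), and UFD1, its cofactor, rose by 0.55. OS9, a lectin that delivers misfolded glycoproteins, fell by 0.36 on the log2 scale. UBAC2 fell by 0.45 and lies on chromosome 13, where 66.1% of 319 tested genes were lower (median -0.41). DERL1 and SYVN1, the derlin and ligase of the membrane channel, had log2 fold changes of -0.09 and -0.05 (edgeR adjusted p = 0.137 and 0.434). Without sgCTRL replicate 1, 3 of these genes were higher, and with the length and GC trend removed 8 were lower.

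Of 20 ER stress genes, 6 rose, 3 fell and 11 did not pass (median 0.05), so 45% passed beside 45.4% of all genes. HSPA5, the main ER chaperone, rose from 917 ± 33.5 to 991 ± 35.2 CPM, which is 0.11 on the log2 scale (edgeR adjusted p = 0.0359). That call was lost without sgCTRL replicate 1 or 2 and without sgSEPHS2 replicate 1 or 2 (edgeR adjusted p = 0.0544 to 0.175), and with the length and GC trend removed (0.09, edgeR adjusted p = 0.0597). DNAJB11, its partner, rose by 0.29, while the stress sensors ERN1 and ATF6 fell by 0.58 and 0.26 on the log2 scale, and DNAJC3 on chromosome 13 by 0.20. HSP90B1, the most abundant of the list, had -0.08 (edgeR adjusted p = 0.0916). It was called lower with the trend removed (-0.19, edgeR adjusted p = 1.07e-04) and with DESeq2 (-0.09, DESeq2 adjusted p = 0.0203). The number higher was not stable. It was 2 without sgCTRL replicate 1 or sgSEPHS2 replicate 2, 3 without sgCTRL replicate 2 or 3, and 2 with DESeq2. The number lower was 5 without sgSEPHS2 replicate 1 or with a filter of 1 CPM, and 7 with the trend removed.

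In the glycoprotein folding cycle, where SELENOF acts, 3 of 11 genes rose and 4 fell (median -0.10), which is 63.6% beside 45.4% of all genes. UGGT2 and UGGT1, the glucosyltransferases that bind SELENOF, both fell. UGGT2 had 110 ± 1.49 CPM in controls and 55.7 ± 0.759 in the others (log2 fold change -0.98, edgeR adjusted p = 1.25e-13) and lies on chromosome 13, with its lower background. UGGT1 had 233 ± 2.46 CPM in controls and 199.6 ± 11.9 in the others (log2 fold change -0.22, edgeR adjusted p = 3.31e-04), a call lost with the length and GC trend removed (-0.05, edgeR adjusted p = 0.345). The lectins CANX and CALR and the glucosidase subunit PRKCSH rose by 0.21, 0.22 and 0.24.

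Of 19 tested genes for disulfide formation, 5 rose and 2 fell (median 0.02), 36.8% beside 45.4% of all genes. TMX4, a membrane thioredoxin, rose from 211 ± 0.313 to 309 ± 22.9 CPM, which is 0.55 on the log2 scale (edgeR adjusted p = 4.85e-09), and ERO1B rose by 0.22. The sulfhydryl oxidases QSOX1 and QSOX2 fell by 0.30 and 0.21 on the log2 scale, QSOX1 not when the trend was removed (-0.07, edgeR adjusted p = 0.199). P4HB, the most abundant, had 0.02 (edgeR adjusted p = 0.752). The number higher was 3 without sgSEPHS2 replicate 3 and with the trend removed.

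Around SELENOI, 4 of 20 genes for phosphatidylethanolamine, phosphatidylcholine and ether lipid synthesis rose and 3 fell (median 0.02), 35% beside 45.4% of all genes. PCYT2, which makes the CDP-ethanolamine that SELENOI uses, rose from a mean of 15.8 to one of 19.1 CPM, which is 0.28 on the log2 scale (SE 0.07, edgeR adjusted p = 0.0032). CEPT1, which catalyses the same step as SELENOI, had 0.04 (edgeR adjusted p = 0.564). CHPT1 and CHKA of the choline branch rose by 0.23 and 0.38, and FAR2 fell by 0.25. AGPS, the most abundant, had a log2 fold change of 0.11, a call (edgeR adjusted p = 0.0297) lost without any library other than sgSEPHS2 replicate 2 (adjusted p = 0.0629 to 0.0897). The number lower was 1 without sgCTRL replicate 1 or 3 and with DESeq2, and 2 without any other library.

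Calcium handling genes, the setting of SELENON, passed in 12 of 19 cases, 8 higher and 4 lower (median 0.11), a share of 63.2% beside the 45.4% of all genes. The release channels moved apart, with ITPR2 at 0.47 and RYR2 at 1.24 higher and ITPR1 at -0.39 lower. RYR1, a channel that SELENON is known to act on and named after its values were seen, was low, at 1.38 ± 0.243 CPM in controls, and fell to 0.428 ± 0.171 (log2 fold change -1.66, edgeR adjusted p = 2.73e-04). ATP2A2, the main calcium pump, had -0.03 (edgeR adjusted p = 0.647). TMEM38B rose by 0.35. ZDHHC6, the SELENOK partner, had 0.11 (edgeR adjusted p = 0.04), a call lost in most other settings. These include leaving out sgCTRL replicate 1, 2 or 3 or sgSEPHS2 replicate 2 (edgeR adjusted p = 0.088 to 0.134) and removing the trend (0.02, edgeR adjusted p = 0.762).

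The oligosaccharyltransferase, which adds glycans in the ER and is a known contact of SELENOT, had 6 of 12 genes higher and 1 lower (median 0.14), so 58.3% passed beside 45.4% of all genes. OST4 rose by 0.29, DAD1 by 0.26 and STT3A by 0.16, RPN2 fell by 0.14 on the log2 scale, and DDOST, the most abundant, had -0.08 (edgeR adjusted p = 0.095). With the length and GC trend removed 2 were higher and 3 lower, and DAD1 lost its call (0.10, edgeR adjusted p = 0.0941). DDOST was called lower with that trend removed (-0.13, edgeR adjusted p = 0.00287). It was also called with the 1 CPM filter (edgeR adjusted p = 0.048) and with DESeq2 (DESeq2 adjusted p = 0.0413). FICD, the ER enzyme that attaches AMP as SELENOO does in mitochondria, had 0.07 (edgeR adjusted p = 0.716). Of the 14 other selenoprotein genes tested, SEPHS2 included, 4 rose and 2 fell (median 0.15), 42.9% beside the 45.4% of all genes. TXNRD1, cytosolic thioredoxin reductase, rose by 0.45. GPX3 fell by 0.39 on the log2 scale, a call lost without sgSEPHS2 replicate 3 (edgeR adjusted p = 0.0697), and the number lower was 1 without sgCTRL replicate 2 or 3 or without sgSEPHS2 replicate 1 or 3. SELENOP, at 0.382 ± 0.171 and 0.915 ± 0.0427 CPM, had 1.26, a call lost without sgCTRL replicate 2 (0.94, edgeR adjusted p = 0.0524).

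**Figure D5:**
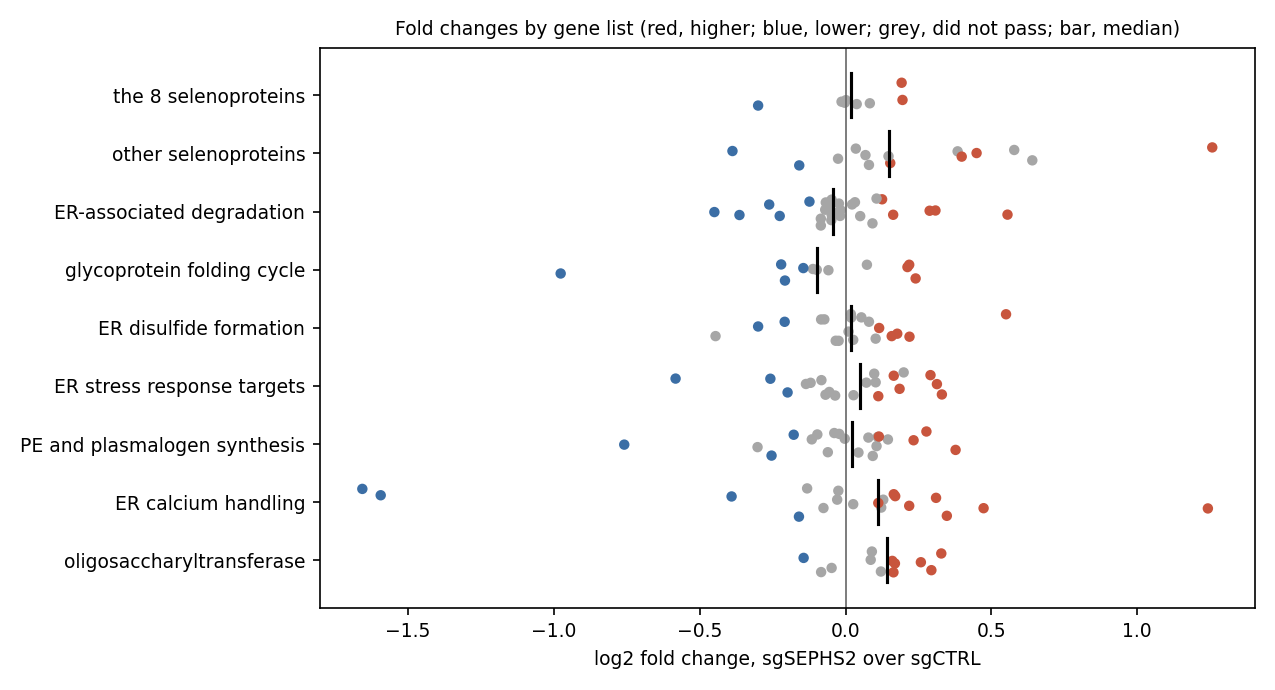
Log2 fold change of each tested gene in the 8 selenoproteins and in 8 lists of related genes, red where higher, blue where lower and grey where the test was not passed, with the median as a black bar. PE stands for phosphatidylethanolamine. The 8 selenoproteins span -0.30 to 0.20, a narrower range than that of any list shown except the oligosaccharyltransferase.

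Likeness of profile was measured as the root-mean-square difference of log2 CPM over the 6 libraries, each gene centred on its own mean, against 142 genes of the lists. SELENON was nearest to ATF6 (0.03, median over the genes 0.19), SELENOK to CALR (0.04), SELENOS to PRKCSH (0.04) and SELENOT to PCYT1A (0.02). SELENOO was nearest to NPLOC4 (0.01), SELENOF to XBP1 (0.04), SELENOI to PTDSS1 (0.03) and SELENOM to GPX1 (0.05). For the genes with flat levels a small difference means only that the other gene was flat too. For SELENON, SELENOK and SELENOS it means mainly a similar fold change, with ATF6 at -0.26, CALR at 0.22 and PRKCSH at 0.24. The nearest of 142 genes is also close by selection, so no link between the genes is drawn from it.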

How the data were processed

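The authors deposited raw read counts per gene symbol for 6 libraries, with no normalization. The submitters' processing notes name HISAT2 2.2.1, featureCounts 2.0.6 of Subread, SAMtools 1.21, FastQC 0.12.1 and build GRCh38. For the annotation, strand setting and multi-mapping reads, the entry is: not given in the sources used here. Groups and replicate numbers came from the titles. In R 4.3.3, edgeR 4.0.16 was run with TMM factors, filterByExpr by group and the two-sided quasi-likelihood test, with Benjamini-Hochberg adjustment over the 16910 genes tested (4721 left out by the filter). A gene was called at adjusted p under 0.05. The standard error is the log2 fold change divided by the root of the F statistic. CPM use TMM-scaled library sizes.

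The members and lists were chosen with earlier results of these data known. All 8 members are named, with up to 4 called genes of smallest adjusted p and the most abundant gene of each list, and partners fixed by role. Alternatives were RLE and upper-quartile factors, 2 other filters, DESeq2 1.42.0, limma-voom (limma 3.58.1), the replicate block, each library left out, adjusted p under 0.01, and removal of a length and GC trend (available for 90.5% of tested genes, from the longest GENCODE 29 transcript of each symbol). The selenocysteine codon of 1 gene is not reported here. The procedure was tested on simulated data. The reads carry no molecular identifiers, so counting errors leave out duplication in PCR.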

Additional observations from a re-analysis of the deposited data

How the results depend on the processing

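The count of changed genes among the 8 was 3 in the reported analysis and under RLE or upper-quartile factors, both other filters, DESeq2, limma-voom, adjusted p under 0.01 and removal of the length and GC trend. It was 2 to 3 with 1 library left out, and over all genes 6339 to 7411 against 7673. With the trend removed the 3 genes called were SELENON, SELENOF and SELENOI, so the count hides a change of genes. SELENOF went from 0.001, not passed, to -0.18. SELENON was called under all 14 other settings at the same threshold (-0.32 to -0.20), SELENOS under 13 and SELENOK under 12. The cause of these changes was not tested. The trend was centred on 0 over all genes, a choice made after the uncentred values had been seen. Removing it uncentred, added after the data were seen, moved the split of calls from 48.5% to 66.8% higher and raised the count among the 8 to 5. That setting moved SELENON to -0.13. Of the 8 and the named list genes called under it or as reported, 4 changed sign. These were SELENOF (-0.11), SELENOO (0.19), UGGT1 (0.024) and ATP2A2 (0.12). SELENOM, called under neither, went from -0.003 to 0.08 (edgeR adjusted p = 0.492). As reported, SELENOF, SELENOO and ATP2A2 were near 0 (0.001, -0.014 and -0.029) and had not passed. UGGT1 lost its call (edgeR adjusted p = 0.651). With the replicate block 7774 genes and 3 of the 8 were called, and it changed none of the calls of the 8. Same-numbered libraries had correlated deviations of 0.01, -0.09 and -0.25, and those with different numbers had values from -0.25 to 0.30. With 3 libraries in a group these correlations cannot decide whether the numbers pair the libraries. Depth limits SELENOM and SELENOO most, with 344 to 550 reads per library.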
